A study of Mus musculus with 16 samples.

Results

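Csn3, Wfdc2, Wfdc18, Lcn2, Slpi, Chil1, Aqp5, Cst6, Dcpp1 and Dcpp2 encode milk proteins and secretory products of luminal epithelium, and their mRNAs were followed through single cells of mouse mammary tumours. The 10 genes were chosen by their levels in these same tumours, among 23467 genes counted in 8 tables. Their levels and model differences are therefore a description and carry no test. All 10 had UMIs (unique molecular identifiers, 1 per captured mRNA molecule) in WB1P tumour cells.

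The cells came from end-stage mammary tumours of female FVB/n mice without treatment, dissociated and sorted as live, dapi-negative singlets. WB1P tumours (WapCre;Brca1F/F;Trp53F/F) lack Brca1 and Trp53 in cells where the whey acidic protein promoter has driven Cre, which is active in mammary epithelium. WB1P-Myc tumours carry the same alleles and Myc, inserted at Col1a1 behind a Cre-inverted CAG promoter with a luciferase reporter. Each model was represented by 1 cell suspension, run by Drop-seq (which barcodes the mRNA of single cells in droplets and counts transcript 3′ ends) in 4 droplet fractions, so model and suspension cannot be told apart. The study states 2 mice per model, without saying whether the suspension pooled them. The 4 fractions are technical samples of 1 suspension, so no p-value was computed, and the 95% intervals cover counting error only.

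The mammary alveolus secretes milk under prolactin, which acts through STAT5 and through factors such as ELF5. Csn3 encodes kappa-casein, the casein that coats and stabilises milk micelles. Wfdc2, Wfdc18 and Slpi encode small secreted proteins with whey acidic protein domains, and SLPI inhibits neutrophil elastase. Lcn2 encodes lipocalin 2, which binds bacterial siderophores and is made by neutrophils and by inflamed epithelium. Chil1 encodes a chitinase-like protein without enzyme activity. Aqp5 encodes a water channel of the apical membrane of glands, and Cst6 encodes cystatin E/M, an inhibitor of legumain and cathepsins. Dcpp1 and Dcpp2 encode demilune cell and parotid proteins, best known from salivary glands.

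The promoters of 4 of these genes are shown because the 2 Dcpp genes were counted together in the same cells, whereas Lcn2 and Wfdc18 were correlated over WB1P cells but only Lcn2 was lower in WB1P-Myc. Each sequence is the 250 bases before the RefSeq start in GRCm38.p6, written along the gene, with every AGGAAG or its reverse complement, an ETS-type core, in capitals. The windows are chr17:23880626-23880875 (plus strand) for Dcpp1, chr17:23898472-23898721 (plus strand) for Dcpp2, chr2:32387740-32387989 (minus strand) for Lcn2 and chr11:83708754-83709003 (plus strand) for Wfdc18.
Dcpp1: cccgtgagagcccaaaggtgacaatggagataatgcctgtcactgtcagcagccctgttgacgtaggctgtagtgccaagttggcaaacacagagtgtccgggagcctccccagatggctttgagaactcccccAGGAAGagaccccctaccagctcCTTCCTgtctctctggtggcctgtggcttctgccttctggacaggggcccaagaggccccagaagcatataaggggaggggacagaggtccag
Dcpp2: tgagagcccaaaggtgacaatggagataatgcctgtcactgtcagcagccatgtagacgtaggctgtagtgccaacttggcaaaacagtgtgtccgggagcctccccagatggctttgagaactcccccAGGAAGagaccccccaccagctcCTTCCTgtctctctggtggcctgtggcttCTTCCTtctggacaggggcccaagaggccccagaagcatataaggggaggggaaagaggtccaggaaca
Lcn2: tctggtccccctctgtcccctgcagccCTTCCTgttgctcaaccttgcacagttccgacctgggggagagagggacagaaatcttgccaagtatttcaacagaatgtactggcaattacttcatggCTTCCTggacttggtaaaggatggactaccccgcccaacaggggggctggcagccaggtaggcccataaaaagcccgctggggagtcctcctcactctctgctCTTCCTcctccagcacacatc
Wfdc18: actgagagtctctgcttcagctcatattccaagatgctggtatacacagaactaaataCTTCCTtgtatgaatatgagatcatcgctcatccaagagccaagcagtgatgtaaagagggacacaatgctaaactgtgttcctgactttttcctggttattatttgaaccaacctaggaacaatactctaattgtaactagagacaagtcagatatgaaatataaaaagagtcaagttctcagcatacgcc

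The Dcpp1 and Dcpp2 windows were the same at 238 of 245 aligned bases (97.1%). Dcpp1 held 2 capitalised cores and Dcpp2 held 3. The Lcn2 window held 3 cores, and the Wfdc18 window held 1. Of the 10 genes, 8 had a RefSeq promoter entry, Csn3 and Cst6 being without one. AGGAAG, searched on both strands, was in the promoters of 5 of the 8 (Lcn2, Wfdc2, Wfdc18, Dcpp1 and Dcpp2) and in 29.2% of 27025 promoters. Dcpp1 and Dcpp2, whose windows are nearly the same, both enter the 5. TTCNNNGAA, a STAT-type motif, was in 0 of the 8 and in 7.18% of all promoters. The degenerate kappa-B consensus of NF-kB, searched on both strands, was in 1 of the 8 (Chil1) and in 3.75% of all. A match of letters is a description and not a binding site, and motifs of the 3 kinds can overlap.

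In GENCODE vM21 on GRCm38, Wfdc2 (chr2:164562413-164568510) and Slpi (chr2:164354070-164389095) lie on the same chromosome as Lcn2 (chr2:32384633-32388252). Csn3 lies at chr5:87925579-87932665, Wfdc18 at chr11:83709015-83711348, Chil1 at chr1:134182176-134190181, Aqp5 at chr15:99590782-99594829 and Cst6 at chr19:5344705-5349574. The RefSeq promoter windows of Lcn2, Wfdc2, Slpi and Dcpp2 lie within these GENCODE gene models, as does nearly all of that of Aqp5. Dcpp1 (chr17:23880876-23882853) overlaps the gene model of Dcpp2 (chr17:23880880-23900788) on the same strand, over all but its first bases. Their transcripts shared 94.2% of 589 aligned bases, and of the 50-base windows in the last 300 bases of Dcpp1, 37.8% occurred unchanged in Dcpp2. How the authors' counting divided reads between the pair is therefore uncertain.

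In the 8 tables, 4798 of 8000 listed barcodes passed the filters of 450 to 4000 genes and under 20% mitochondrial UMIs, 1307 from WB1P and 3491 from WB1P-Myc, with medians of 1724 and 2358 UMIs. The table totals ranged from 256985 to 1918672 UMIs in WB1P and from 3814562 to 4960334 in WB1P-Myc. Cells were clustered without the 10 genes, and clusters were named from marker lists that hold none of them. Epithelial-like cells numbered 675 in WB1P and 1169 in WB1P-Myc, with medians of 1834 and 1868 UMIs. Nearly all of them lay in different clusters, 656 of the 675 in cluster 4 and 1158 of the 1169 in cluster 1. The size of the WB1P-Myc class depended on the processing. It held 519 cells with finer clusters (resolution 0.6), 890 with the 10 genes kept in clustering and 930 without an upper limit on genes. The WB1P class held 658, 660 and 696 cells in these settings. With a lower limit of 200 genes, the WB1P and WB1P-Myc classes held 1108 and 1378 cells. Of 15 epithelial markers, 14 had a UMI in WB1P epithelial-like cells, where they summed to 6420 UMIs per 1000000 UMIs (CPM), against 340 CPM in WB1P macrophage-like cells. In WB1P-Myc epithelial-like cells all 15 were present at a sum of 3164 CPM, and no epithelial marker was among the 10 leading genes of cluster 1. WB1P fraction 1 stood apart, with 60 epithelial-like cells at a median of 899 UMIs. Of the 28 pairs of tables, 1 pair shared 1 kept barcode.

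In WB1P epithelial-like cells the 10 genes together made up 11073 CPM (95% interval 10929 to 11218). Lcn2 was the highest, at rank 19 by level among 16049 genes with a UMI, followed by Slpi at rank 33 and Wfdc18 at rank 78. Levels are UMIs of 3′ ends and were not divided by transcript length. Csn3, Wfdc2, Chil1 and Aqp5 ranked from 176 to 352, Cst6 ranked 731, and Dcpp1 and Dcpp2 ranked 1298 and 2450.

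The casein gene Csn3 was at 2845, 822, 655 and 987 CPM in WB1P fractions 1 to 4, and at 920 CPM (879 to 963) in all WB1P epithelial-like cells. Fraction 1 was high and the others were within 655 to 987 CPM. Of the 254 Csn3 UMIs in fraction 1, 194 came from 2 deep cells with 9010 and 11621 UMIs. Csn1s1 and Csn2, the caseins most abundant in lactation, were at 25.0 and 2.94 CPM in the same cells. Whey acidic protein, whose promoter drives Cre in these mice, had 4 UMIs of Wap in all 675 cells, and alpha-lactalbumin had 3 UMIs of Lalba.

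Among the whey acidic protein domain genes, Slpi was at 2028, 2661, 2018 and 3629 CPM in WB1P fractions 1 to 4, and at 2781 CPM (2709 to 2854) overall. Wfdc18 was at 1893, 1763, 1342 and 1664 CPM, and at 1624 CPM (1569 to 1680) overall. Wfdc2 was at 1064, 631, 685 and 670 CPM, and at 677 CPM (642 to 714) overall. Wfdc18 varied least of the 3 over fractions, and Wfdc2 was high in fraction 1 alone, where 2 cells held 27 of its 95 UMIs. In that fraction the 10 genes summed to 16837 CPM, against 10298 to 11418 CPM in the other fractions.

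Lcn2 was at 7169, 3358, 3813 and 3135 CPM in WB1P fractions 1 to 4, and at 3573 CPM (3491 to 3656) overall. Chil1 was at 795, 482, 773 and 594 CPM, and at 611 CPM (577 to 645) overall. Lcn2 was again highest in fraction 1, where 2 cells held 280 of its 640 UMIs, whereas Chil1 in fractions 1 and 3 was nearly the same. Lipocalin 2 is also a granule protein of neutrophils. The 7 neutrophil markers counted in these cells, which include S100a8 and S100a9, summed to 162 CPM in WB1P epithelial-like cells, and to 11.2, 189, 127 and 181 CPM in fractions 1 to 4. The part of neutrophil RNA in the Lcn2 level was not tested.

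Aqp5 was at 639, 417, 398 and 511 CPM in WB1P fractions 1 to 4, and at 453 CPM (424 to 483) overall. Cst6 was at 112, 313, 224 and 169 CPM, and at 233 CPM (213 to 255) overall. Aqp5 stayed within 1.60-fold over the fractions. The demilune genes varied more. Dcpp1 was at 258, 139, 224 and 38.6 CPM, and at 134 CPM (118 to 151) overall. Dcpp2 was at 33.6, 42.2, 165 and 19.3 CPM, and at 67.1 CPM (56.4 to 79.4) overall. Both were lowest in fraction 4, and Dcpp2 was high in fraction 3. Single cells carried these values. For Dcpp1, 1 cell held 21 of the 23 UMIs in fraction 1 and another held 76 of the 102 in fraction 2, and for Dcpp2, 2 cells held 65 of the 90 UMIs in fraction 3. Without the 2 cells with most UMIs of each gene, the overall levels were 72.3 CPM for Dcpp1, 35.2 CPM for Dcpp2 and 146 CPM for Cst6.

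**Figure D1:**
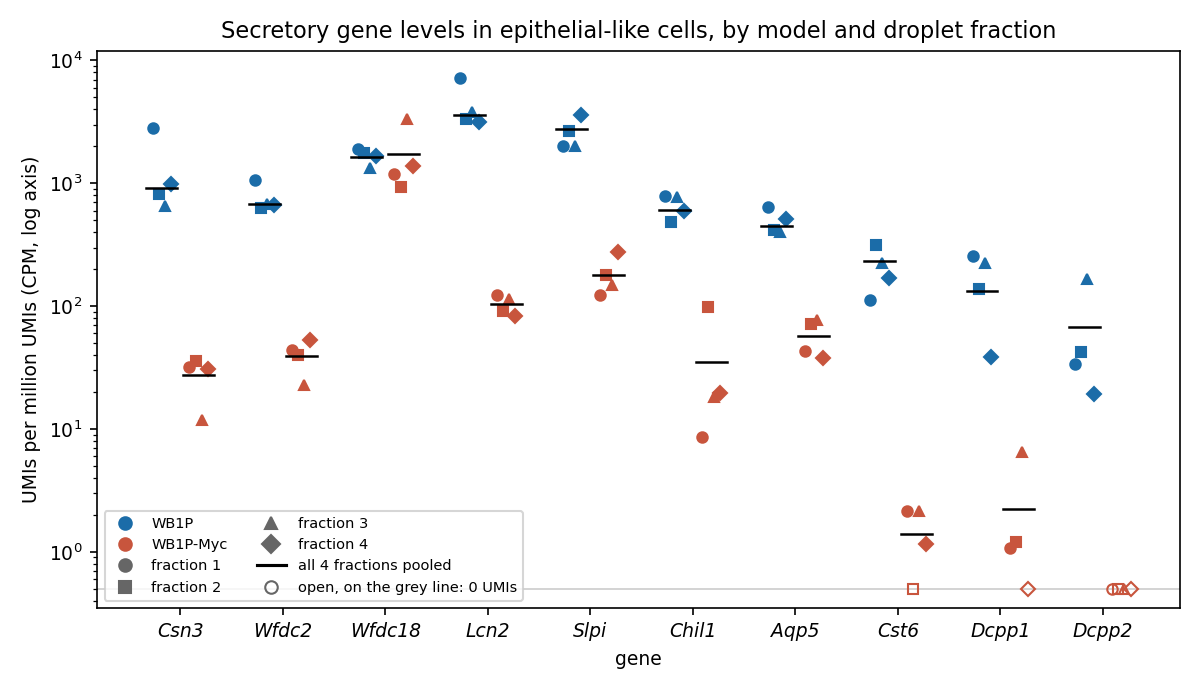
Level of each gene (CPM, log axis) in epithelial-like cells, with 1 symbol per droplet fraction, WB1P in blue, WB1P-Myc in red and a line for the 4 fractions pooled; open symbols on the grey line mark fractions with 0 UMIs. For 9 genes every WB1P fraction lies above every WB1P-Myc fraction, and for Wfdc18 the fractions of both models overlap.

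In WB1P-Myc epithelial-like cells the 10 genes summed to 2181 CPM (2133 to 2230), 5.08-fold less than in WB1P. The log2 ratio of WB1P-Myc over WB1P was -2.34 (-2.38 to -2.31). Of the 10 genes, 9 were at least 4-fold lower in WB1P-Myc, with all 4 WB1P fractions above all 4 WB1P-Myc fractions, the exception being Wfdc18. At least 4-fold lower were 4.6% of the 8778 genes with at least 50 UMIs over both models, and 3.99% also had fractions that did not overlap. Since the genes were chosen with these levels known, nothing is read from these counts. In the MiSeq tables, which share few kept barcodes with these and held 2 WB1P-Myc epithelial-like cells, 3 genes were at least 4-fold lower. The median log2 ratio was -4.60 over the 10 genes and 0.0169 over all genes tested.

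Csn3 was at 32.1, 36.1, 11.9 and 31.0 CPM in WB1P-Myc fractions 1 to 4, and at 27.5 CPM (22.3 to 33.5) overall. The log2 ratio of Csn3 was -5.06 (-5.37 to -4.77), a 33.5-fold difference. Each of the fractions was below the lowest WB1P fraction of 655 CPM. The 11 WB1P-Myc cells that lay in cluster 4, with nearly all the WB1P cells, held 45 of the 98 Csn3 UMIs (45.9%), at 1774 CPM. In the 1158 WB1P-Myc cells of cluster 1 Csn3 was at 15.0 CPM.

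Slpi was at 123, 180, 149 and 277 CPM in WB1P-Myc fractions 1 to 4, a 15.4-fold lower level than in WB1P with a log2 ratio of -3.94 (-4.06 to -3.83). Wfdc2 was at 43.9, 39.7, 22.6 and 52.9 CPM, with a log2 ratio of -4.10 (-4.36 to -3.85). Both inhibitors were far below their WB1P fractions, and in the 11 WB1P-Myc cells of cluster 4 they were at 1262 and 591 CPM. The corresponding 19 WB1P cells in cluster 1 had Slpi at 803 CPM (497 to 1228) and Wfdc2 at 344 CPM (157 to 654).

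Lcn2 was at 123, 91.4, 114 and 83.9 CPM in WB1P-Myc fractions 1 to 4, with a log2 ratio of -5.10 (-5.26 to -4.95), a 34.4-fold difference. Chil1 was at 8.56, 98.6, 18.3 and 19.5 CPM, with a log2 ratio of -4.13 (-4.41 to -3.87). In fraction 2, where Chil1 was high, 1 cell held 71 of its 82 UMIs, and without that cell Chil1 was at 14.9 CPM over all WB1P-Myc epithelial-like cells, against 34.8 CPM with it. Without fraction 2 the log2 ratio of Chil1 was -5.31. Aqp5 was at 42.8, 72.2, 77.6 and 37.9 CPM, with a log2 ratio of -2.98 (-3.20 to -2.76). At 7.87-fold, Aqp5 had the smallest difference of the 9 genes.

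Cst6 had 5 UMIs in all 1169 WB1P-Myc epithelial-like cells, against 476 in WB1P, and a log2 ratio of -7.38 (-9.01 to -6.14). Dcpp1 had 8 UMIs, with a log2 ratio of -5.90 (-7.12 to -4.90) that was -7.46 without WB1P-Myc fraction 3, which held 6 of the 8. Dcpp2 had 0 UMIs and was at least 79.7-fold lower, by a floor of 3 counts over the group. Without WB1P fraction 3, which held 90 of the 137 Dcpp2 UMIs of WB1P, it was at least 37.3-fold lower. These 3 genes were close to absent at this depth, where 0 of 1169 cells allows a share of cells with a Dcpp2 UMI of up to 0.257% by the same floor. The limit of 0.257% is on cells with a UMI and not on cells that express the gene, whereas the fold limits are on pooled UMIs.

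Wfdc18 went another way. It was at 1196, 925, 3332 and 1378 CPM in WB1P-Myc fractions 1 to 4 and at 1733 CPM (1690 to 1777) overall. The log2 ratio was 0.09 (0.03 to 0.16), with fractions that overlapped those of WB1P. Wfdc18 made up 6177 of the 7772 UMIs of the 10 genes in these cells. Fraction 3 held the highest Wfdc18 level and a UMI in 62.8% of cells, against 33.1% to 37.8% in the other fractions. In WB1P-Myc fraction 3 Wfdc18 was also highest in Schwann-like cells (232 CPM, against 21.2 to 43.0) and macrophage-like cells (262 CPM, against 44.6 to 102). Without fraction 3 the log2 ratio of Wfdc18 was -0.47, and over all WB1P-Myc cells outside the stromal and leukocyte classes it was -1.22. The 19 WB1P cells in cluster 1 had 1 Wfdc18 UMI, whereas the 11 WB1P-Myc cells in cluster 4 had Wfdc18 at 2445 CPM (1874 to 3134).

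**Figure D2:**
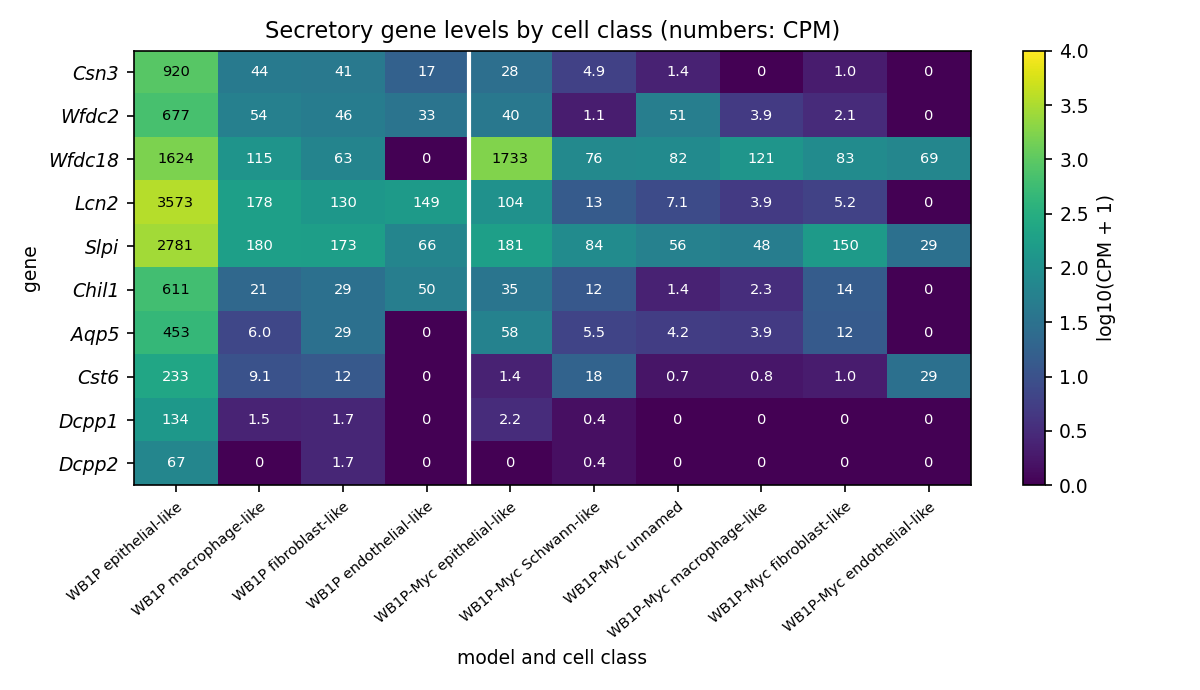
Heat map of the level of each gene (numbers in CPM, colour by log10(CPM + 1)) in each cell class, WB1P to the left and WB1P-Myc to the right of the white line. The WB1P epithelial-like column holds the highest level of every gene but Wfdc18, which is at 1624 CPM there and 1733 CPM in WB1P-Myc epithelial-like cells.

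Within WB1P tumours, 8 of the 10 genes were at least 4-fold higher in epithelial-like cells than in each other class, beside 0.473% of 7407 genes with at least 50 UMIs in WB1P. Dcpp1 and Dcpp2 missed this mark because a floor of 3 counts over the 37 endothelial-like cells amounts to 49.5 CPM. The small endothelial-like class set the same limit for the other genes, so those with few UMIs could not pass. The share of 0.473% is therefore held low, and nothing is read from the count of 8 for genes chosen with these levels known. With finer clusters (resolution 0.6) the count was 3, and with a lower limit of 200 genes or no upper limit it was 5. In the 377 macrophage-like cells Slpi was at 180 CPM, Lcn2 at 178 CPM and Wfdc18 at 115 CPM. In the 218 fibroblast-like cells the same 3 genes were at 173, 130 and 63.4 CPM. The level of Wfdc18 without fraction 4 was 64.3 CPM for the macrophage-like class and 38.6 CPM for the fibroblast-like class. For the 7 genes with the highest level, macrophage-like cells had 1.34% to 8.03% of the epithelial-like level, with a median of 4.99%. The ends of this range were Aqp5, at 6.04 CPM and 2.36 CPM without fraction 3, and Wfdc2, at 54.4 CPM and 33.3 CPM without fraction 4. Fibroblast-like cells had 3.65% to 6.83% of it, with a median of 4.77%.

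The same transcripts were counted in barcodes with few genes. In WB1P, 1605 listed barcodes had under 200 genes, and their 308517 UMIs held 1448 UMIs of the 10 genes, a sum of 4693 CPM. Lcn2 was at 42.4% of its epithelial-like level there, Csn3 at 30.6%, Wfdc18 at 50.7% and Cst6 at 88.9%. WB1P-Myc had 3 such barcodes, with 0 UMIs of the genes. The part of free RNA in the values of the stromal classes was not tested.

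In WB1P-Myc the genes were also counted outside the epithelial-like class. In the 1028 Schwann-like cells, which were all from WB1P-Myc, the 10 genes summed to 215 CPM (201 to 229). Cst6 was at 17.7 CPM (14.0 to 22.0) in Schwann-like cells, above its 1.40 CPM (0.46 to 3.27) in the epithelial-like cells of the same tumours. In the 71 endothelial-like cells Cst6 was at 28.6 CPM (9.30 to 66.9), from 5 UMIs of which 3 were in fraction 3, without which it was at 14.2 CPM (1.71 to 51.1). Wfdc2 was at 50.8 CPM (39.8 to 64.0) in an unnamed cluster of 248 cells led by Slc38a4, Dlk1 and Gap43, and at 39.6 CPM (33.3 to 46.7) in the epithelial-like cells. The intervals of Cst6 in Schwann-like and epithelial-like cells do not overlap, whereas those of Wfdc2 do. Fraction 1 held 45 of the 72 Wfdc2 UMIs of the unnamed cluster, 28 of them in 1 cell, and without that fraction Wfdc2 was at 28.2 CPM (18.6 to 41.1) there, below the epithelial-like level. Slpi was at 150 CPM in fibroblast-like cells, which is 82.9% of its level in WB1P-Myc epithelial-like cells. In Schwann-like, unnamed, macrophage-like and endothelial-like cells of WB1P-Myc, Slpi was at 46.4%, 30.9%, 26.5% and 15.9% of that level. The epithelial-like level of Slpi was thus less apart from other classes in WB1P-Myc than in WB1P, where its fibroblast-like level was 173 CPM against 2781 CPM.

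The 10 genes were counted in different numbers of single WB1P epithelial-like cells. Lcn2 had a UMI in 79.3% of the 675 cells (76.0% to 82.3%), against 23.3% of macrophage-like cells, whose median depth was 1450 UMIs against 1834. With every cell thinned to 600 UMIs, the shares of Lcn2 were 62.8% and 10.3%. Slpi had a UMI in 66.5% of epithelial-like cells (45.3% thinned) and in 22.3% of macrophage-like cells (8.49% thinned). These were the only genes counted in most WB1P epithelial-like cells. Wfdc18, Wfdc2, Aqp5, Chil1 and Csn3 had a UMI in 49.2%, 48.6%, 44.4%, 42.1% and 41.6% of cells, and in 14.9%, 8.22%, 1.06%, 3.71% and 6.10% of macrophage-like cells. Thinned, the 5 genes were in 21.5% to 32.0% of epithelial-like cells. Cst6 was in 15.9%, Dcpp1 in 7.56% and Dcpp2 in 4.44% of epithelial-like cells, and in 1.59%, 0.265% and 0 of macrophage-like cells. The median WB1P epithelial-like cell held UMIs of 4 of the 10 genes, 32 cells (4.74%) held none and 1 or more cells held 9. At 600 UMIs per cell the median was 2 genes, and 12.1% of cells held none.

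**Figure D3:**
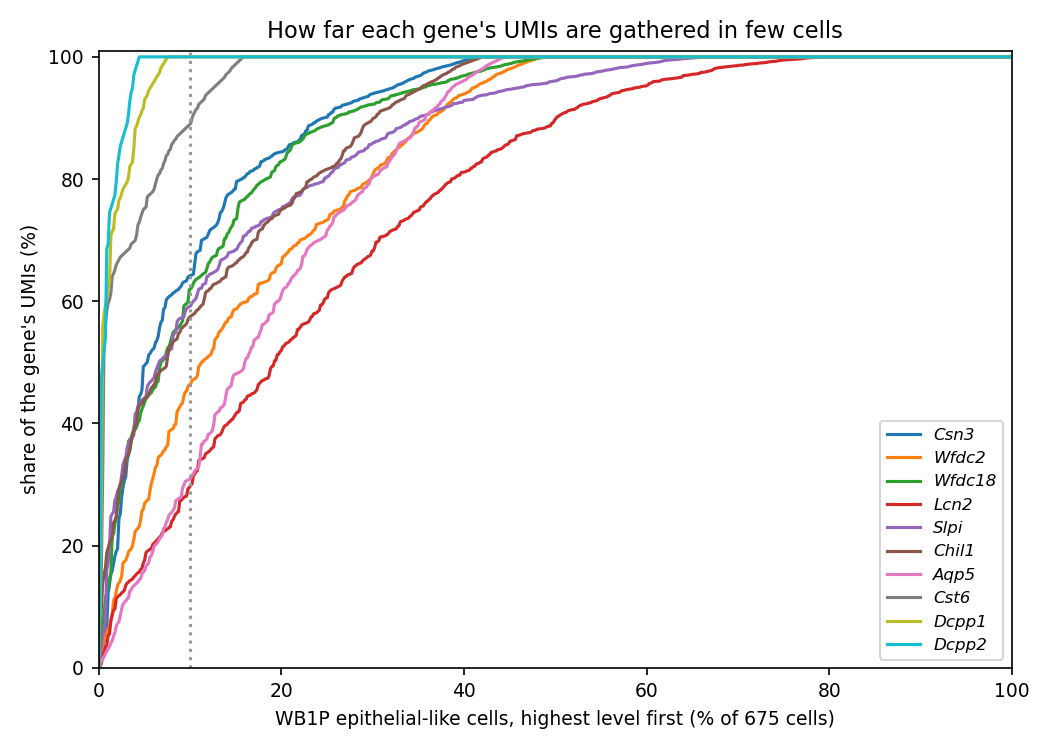
Share of each gene's UMIs (y axis, %) held by WB1P epithelial-like cells ordered from the highest level down (x axis, % of 675 cells), with a dotted line at 10% of cells. At that line Lcn2 and Aqp5 reach 29.9% and 31.1%, Csn3 reaches 64.2% and Cst6 reaches 89.1%.

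The UMIs of some genes were gathered in few cells. The 68 cells (10%) with the highest level of each gene held 29.9% of Lcn2 UMIs and 31.1% of Aqp5 UMIs, which is below the median of 35.5% over 1751 genes with at least 200 UMIs. They held 46.5% for Wfdc2, 57.5% for Chil1, 59.2% for Slpi, 62.0% for Wfdc18, 64.2% for Csn3 and 89.1% for Cst6. They held all Dcpp1 and Dcpp2 UMIs, since fewer cells had any. The depth-scaled variance over the mean was 34.9 for Slpi (rank 7 of the 1751 genes), 28.8 for Cst6 (rank 12) and 27.5 for Wfdc18 (rank 13), beside a median of 1.40 and a 90th percentile of 2.75. Lcn2 was at 12.6 (rank 28) and Aqp5 at 2.96 (rank 152), both above that 90th percentile. Neither the share held by the highest cells nor the variance over the mean is adjusted for a gene's number of UMIs. The cell with most UMIs of a gene had 498 for Slpi, 205 for Wfdc18, 154 for Lcn2, 109 for Cst6 and 76 for Dcpp1. In WB1P-Myc epithelial-like cells Wfdc18 had a UMI in 42.0% of cells, and the 117 highest cells held 78.1% of its UMIs, with 356 in 1 cell.

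Over the 675 WB1P epithelial-like cells, 7 of the 45 pairs of genes had a Pearson r of at least 0.3, and r ranged from -0.12 to 0.81 with a median of 0.10. All correlations are of log values per 10000 UMIs over cells that share libraries and differ in depth, and are a description. Dcpp1 and Dcpp2 had the highest r of 0.81 (Spearman rho 0.69), 0.28 to 0.88 within fractions and 0.51 at 600 UMIs per cell. Of the 51 cells with Dcpp1 and the 30 with Dcpp2, 27 had both. The sources used here do not say how reads that fit either gene were counted, and their part in this r was not tested.

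Other pairs joined Lcn2, Chil1, Wfdc18, Aqp5 and Csn3. Lcn2 had an r of 0.43 with Chil1 (0.38 to 0.48 within fractions), 0.42 with Wfdc18 (0.39 to 0.47) and 0.36 with Aqp5 (0.29 to 0.47). Csn3 had an r of 0.39 with Wfdc18 (0.32 to 0.64) and 0.36 with Lcn2 (0.27 to 0.51). Slpi reached 0.3 with none of these genes over all cells and had an r of 0.36 with Wfdc2 (0.25 to 0.48). Its r with Lcn2 was 0.15, as was that of Wfdc18 with Aqp5. In fraction 1 the r of Slpi was 0.36 to 0.49 with Csn3, Lcn2, Chil1 and Aqp5 and 0.18 with Wfdc18. Wfdc2 and Wfdc18, both with whey acidic protein domains, had the lowest r of -0.12. At 600 UMIs per cell the r of Lcn2 was 0.34 with Chil1 and 0.31 with Wfdc18, that of Csn3 was 0.30 with Wfdc18 and 0.28 with Lcn2, and that of Wfdc2 with Slpi was 0.28. The r of Lcn2 with Aqp5 was 0.19 at that depth. That of Wfdc2 with Wfdc18 was -0.04 and no longer the lowest, which was -0.08 for Wfdc2 with Chil1.

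**Figure D4:**
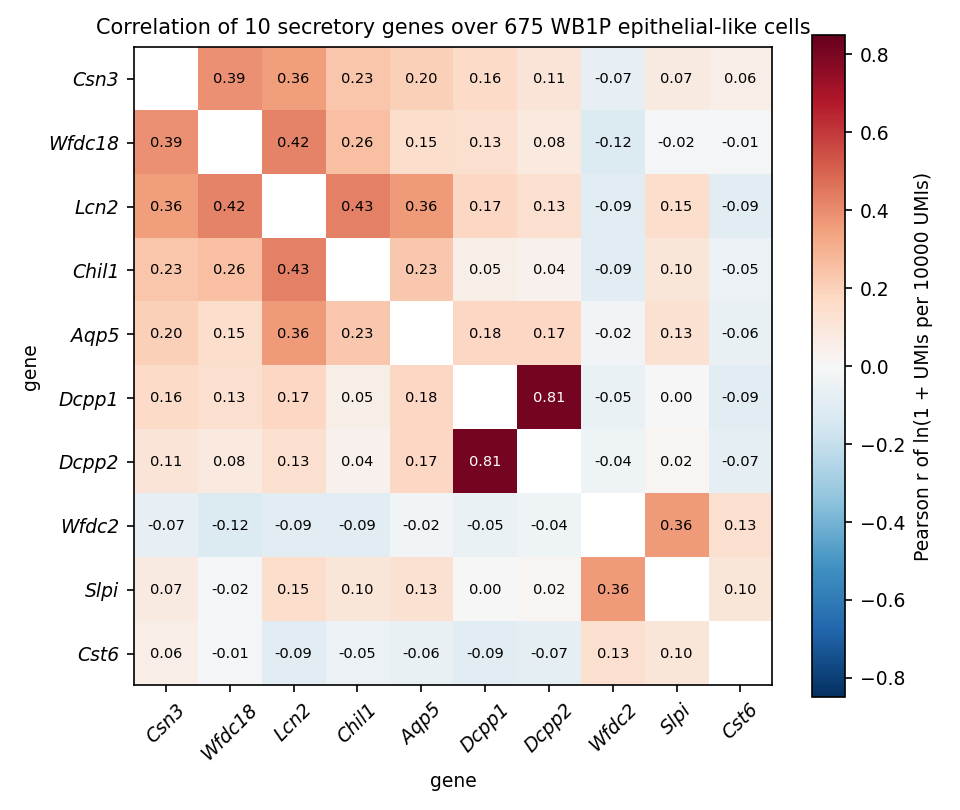
Pearson r (numbers and colour) of ln(1 + UMIs per 10000 UMIs) for each pair of genes over 675 WB1P epithelial-like cells. Csn3, Wfdc18, Lcn2, Chil1 and Aqp5 form a block of positive values, Dcpp1 and Dcpp2 a pair at 0.81, and Wfdc2 and Slpi a pair at 0.36. The block has no sharp edge, since r is 0.15 for Wfdc18 with Aqp5 and also for Slpi with Lcn2.

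Among all genes with at least 200 UMIs, those most like each gene over these cells, named where r was at least 0.3, included several epithelial genes. Lcn2 was followed by Fxyd3 (r of 0.42, 0.39 to 0.44 within fractions), a regulator of the sodium pump. Wfdc18 was followed by Epcam (0.35), the epithelial adhesion molecule. Wfdc2 went with S100a6 (0.38) and Krt7 (0.35), a luminal keratin. Chil1 went with Trf (0.34), which encodes transferrin, and Cst6 with Klk6 (0.41), a secreted serine protease. The r of Cst6 with Klk6 ranged from -0.01 to 0.61 within fractions. No gene reached 0.3 with Dcpp1, apart from Dcpp2, which had under 200 UMIs. The lowest r were those of Lcn2 with Inhba (-0.45), an activin subunit, with Timp2 (-0.36) and with Lgals1 (-0.33), and that of Wfdc18 with Lgals1 (-0.31). In the 1169 WB1P-Myc epithelial-like cells Wfdc18 went with Krt18 (0.45), Krt8 (0.45) and Fxyd3 (0.44).

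The WB1P epithelial-like cells were clustered again without the 10 genes, and the sub-clusters were left unnamed. Sub-cluster 1 (285 cells) was led by Cebpd, Igfbp5 and Zfp36, sub-cluster 2 (160 cells) by Inhba, Sdc2 and Cav1, sub-cluster 3 (118 cells) by Snrpn, Mcm4 and Ddah1, and sub-cluster 4 (100 cells) by Mki67, Ankrd11 and Golga4. Sub-cluster 5 held 12 cells, all of fraction 2, with Lcn2 at 8930 CPM (7627 to 10392) and Chil1 at 2781 CPM (2077 to 3647), above the other sub-clusters, 0 UMIs of Slpi and a sum of 13316 CPM over the 10 genes. Fraction 1 gave 58 of its 60 cells to sub-cluster 4. Median depth was 1354, 3272, 5402.5 and 992.5 UMIs in sub-clusters 1 to 4.

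Summed over the 10 genes, sub-cluster 1 was at 14483 CPM and sub-cluster 3 at 13734 CPM, against 6297 CPM in sub-cluster 2 and 8367 CPM in sub-cluster 4. The sum in sub-cluster 4 was 12661 CPM in fraction 1 and 2064 and 4964 CPM in fractions 2 and 4. Without fraction 1 it was 3172 CPM (2726 to 3671), below sub-cluster 2. Wfdc18 differed most among the abundant genes, at 3443 CPM in sub-cluster 1 and 278 CPM in sub-cluster 2. In fractions 2, 3 and 4 Wfdc18 was at 3801, 2412 and 4110 CPM in sub-cluster 1, and at 78.2, 243 and 526 CPM in sub-cluster 2. The 3 fractions thus showed the same direction for Wfdc18, fraction 1 having no cells in either sub-cluster.

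Csn3, Lcn2, Chil1 and Aqp5 followed Wfdc18, with levels in sub-cluster 1 of 1118, 4401, 989 and 627 CPM, and in sub-cluster 2 of 244, 1567, 241 and 193 CPM. Dcpp1 was at 138 and 263 CPM in sub-clusters 1 and 3 and had 2 UMIs in sub-cluster 2, where Dcpp2 had 0. In sub-cluster 3, 2 cells held 127 of the 199 Dcpp1 UMIs, and without them Dcpp1 was at 98.1 CPM. In sub-cluster 1 Dcpp1 was at 58.6, 304 and 58.3 CPM in fractions 2 to 4, with 25 of its 63 UMIs in 1 cell, and was at 58.5 CPM (34.6 to 92.4) without fraction 3. Cst6 and Wfdc2 had higher levels in sub-cluster 2. Cst6 was at 482 CPM (431 to 537) in sub-cluster 2, against 193 CPM (155 to 238) in sub-cluster 1 and 63.5 CPM in sub-cluster 3. By fraction, Cst6 was at 794, 390 and 201 CPM in sub-cluster 2 and at 35.1, 216 and 364 CPM in sub-cluster 1, so that fraction 4 had the opposite order. In sub-cluster 1, 1 cell of fraction 4, with 725 UMIs in all, held 40 of the 88 Cst6 UMIs. The order in fraction 4 depends on that cell. In sub-cluster 2, 182 of the 330 Cst6 UMIs came from 2 cells of fraction 2. Without the 2 highest cells of each, Cst6 was at 223 CPM in sub-cluster 2 and 88.2 CPM in sub-cluster 1. Wfdc2 was at 965 CPM in sub-cluster 2 and 575 CPM in sub-cluster 1, with 846, 1199 and 927 CPM against 480, 507 and 765 CPM by fraction. Slpi was at 2919, 2324, 3421 and 1332 CPM in sub-clusters 1 to 4, and at 441 CPM (285 to 650) in sub-cluster 4 without fraction 1. Lcn2 in sub-cluster 4 was at 5842 CPM in fraction 1 and at 732 and 1443 CPM in fractions 2 and 4. A single cell of fraction 1 held 126 of the 457 Lcn2 UMIs of sub-cluster 4. Without fraction 1, sub-cluster 4 had Lcn2 at 987 CPM (746 to 1282), Chil1 at 211 CPM (109 to 369) and Aqp5 at 159 CPM (72.5 to 301), each below its level in sub-cluster 2. For Chil1 (12 UMIs) and Aqp5 (9 UMIs) the interval holds the sub-cluster 2 level, and for Lcn2 it does not. These intervals leave out the spread over cells, so no difference is read from them. Also without fraction 1, Wfdc2 (370 CPM), Cst6 (17.6 CPM) and Slpi in sub-cluster 4 were below their sub-cluster 2 levels. Csn3 (300 CPM), Wfdc18 (582 CPM), Dcpp1 (70.5 CPM) and Dcpp2 (35.2 CPM) were above theirs.

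**Figure D5:**
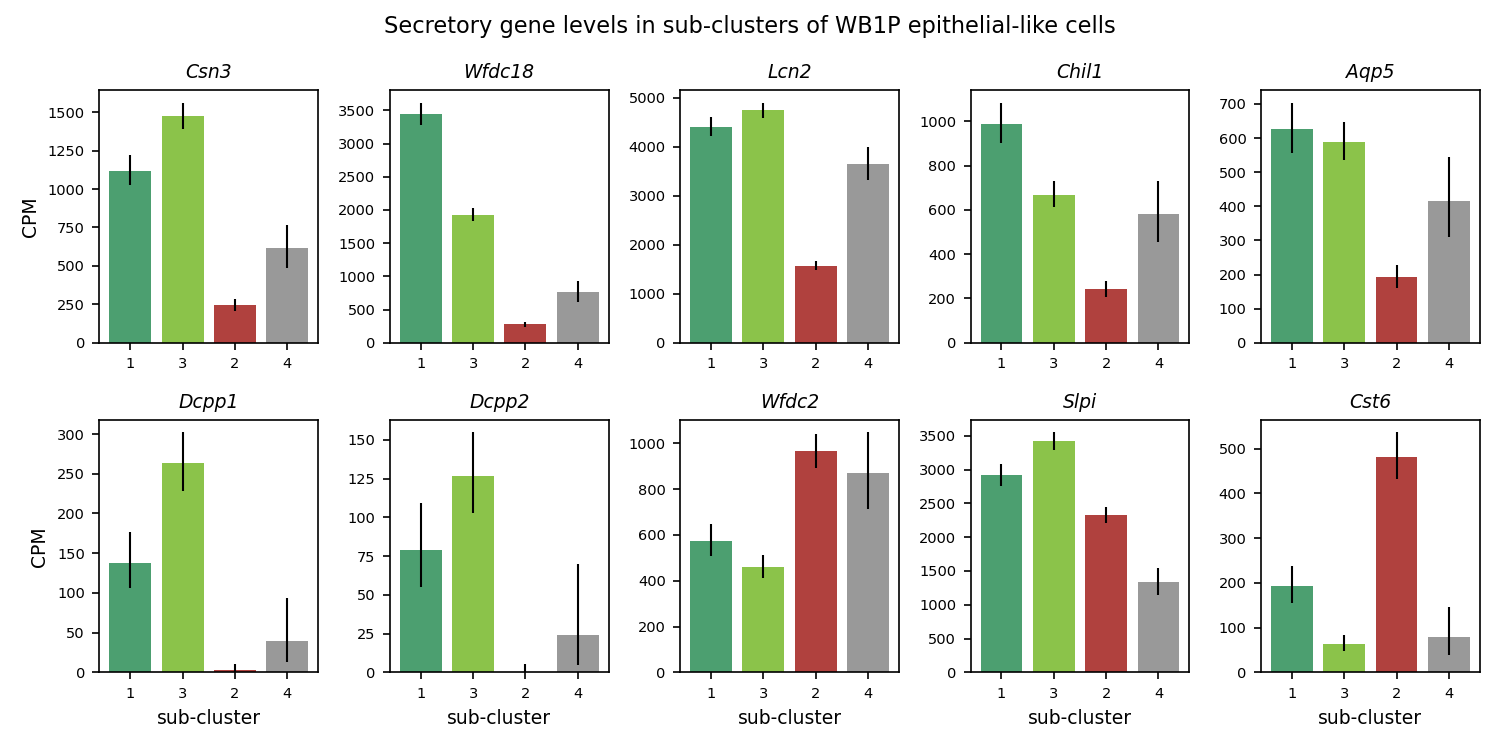
Level of each gene (CPM, bars from 0) in sub-clusters 1, 3, 2 and 4 of WB1P epithelial-like cells, formed without the 10 genes, with exact Poisson 95% intervals for counting error. Csn3, Wfdc18, Lcn2, Chil1, Aqp5 and the Dcpp genes are lowest in sub-cluster 2. Once fraction 1, with 58 of the 100 cells of sub-cluster 4, is left out, Lcn2 is lower in sub-cluster 4. Chil1 and Aqp5 are then also lower there, but with intervals that hold their sub-cluster 2 levels. Cst6 is highest in sub-cluster 2 at 482 CPM, with 182 of 330 UMIs in 2 cells, and Wfdc2 is at 965 CPM.

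Related genes were read from fixed lists, each beside the 4.6% of all genes that were at least 4-fold lower in WB1P-Myc epithelial-like cells and the 4.08% that were at least 4-fold higher. With fractions that also did not overlap between the models, these shares were 3.99% and 3.88%. Of 22 other milk protein and milk fat globule genes, 7 had enough UMIs. Mfge8 and Trf were lower in WB1P-Myc, with log2 ratios of -3.02 and -2.73, whereas Csn2 (2.88), Fabp3 (3.26) and Ltf (2.28), which encodes lactoferrin, were higher. The fractions of both models did not overlap for Mfge8, Trf and Fabp3, and overlapped for Csn2 and Ltf. Csn2 was at 2.94 CPM in WB1P and 21.6 CPM in WB1P-Myc, opposite to Csn3. Of 12 other genes with whey acidic protein domains, 3 had enough UMIs. Wfdc12 was higher in WB1P-Myc, with 132 UMIs against 1 and a log2 ratio of 6.24 (3.74 to 11.55). Wfdc12 was also among the leading genes of the Schwann-like cluster, and the 10 Schwann markers summed to 791 CPM in WB1P-Myc epithelial-like cells against 254 CPM in those of WB1P. The part of such RNA in the Wfdc12 value was not tested.

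Relatives of the other members were few at this depth. Apod was the only other lipocalin with enough UMIs, with a log2 ratio of -2.30. Aqp3 was the only other aquaporin, with a log2 ratio of -2.55. For both genes the fractions of the models overlapped. Chit1, an active chitinase, was higher in WB1P-Myc with a log2 ratio of 4.80 (2.90 to 7.86), opposite to Chil1. The cystatins Cst3 and Cstb had log2 ratios of -0.43 and -0.88, against -7.38 for Cst6. Dcpp3, the remaining demilune gene, had 14 UMIs in WB1P and 0 in WB1P-Myc epithelial-like cells. Of 12 salivary gland genes, 5 were in the tables and none had enough UMIs. Among 12 targets and receptors of these proteins, 5 were counted and none passed 4-fold, with log2 ratios of -1.95 for Ctsl and -1.66 for Ctsb, the cathepsins, and 0.25 for Lgmn, which encodes legumain.

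Of 14 lactogenic and alveolar regulators, 12 had enough UMIs and 2 were at least 4-fold lower in WB1P-Myc, Cebpb (-2.64) and Cebpd (-2.26), both with fractions that overlapped between the models. Elf5 had a log2 ratio of -1.28 (-1.84 to -0.73) and Prlr, the prolactin receptor, of -1.02. Ehf was nearly the same (-0.12), and of the 12 only Gata3 (1.49, 0.49 to 2.64) and Sox10 (1.29, 1.00 to 1.59) were higher in WB1P-Myc. Sox10 is also a Schwann marker, at 251 CPM in Schwann-like and 141 CPM in epithelial-like cells of WB1P-Myc. The part of Schwann-like RNA in the Sox10 value was not tested. All 13 genes associated with NF-kB and interferon in epithelium were counted, and 5 were at least 4-fold lower in WB1P-Myc, namely Saa1, Saa2, Cxcl1, Cxcl5 and Ccl20, of which Saa1, Cxcl1 and Cxcl5 had fractions that did not overlap. The neutrophil chemoattractant Cxcl1 was at 907 CPM in WB1P and 68.2 CPM in WB1P-Myc, a log2 ratio of -3.73. The median log2 ratio was -1.004 over the regulators and -0.92 over the NF-kB and interferon list. Of 12 neutrophil genes, 3 were counted and only Ltf passed 4-fold, upwards. S100a8, a neutrophil alarmin also made by epithelium, reached 86.7 CPM in the WB1P cells.

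Of the lineage lists, some members also passed 4-fold between the models. Of 14 luminal genes 4 were at least 4-fold lower in WB1P-Myc (Krt7, Cldn4, Prom1 and Aldh1a3), with a median log2 ratio of -1.38 over the list. Of 11 basal and myoepithelial genes 5 were counted and 2 were at least 4-fold higher in WB1P-Myc, Krt15 (3.68) and Krt5, which had 0 UMIs in WB1P and 142 in WB1P-Myc. Of 9 hormone-sensing luminal genes 4 were counted, with a median log2 ratio of -0.29. Of these, 1 was at least 4-fold lower in WB1P-Myc, the growth factor gene Areg, at 462 CPM in WB1P and 18.8 CPM in WB1P-Myc. Of 15 cell cycle genes, all counted, Top2a alone passed 4-fold, with a log2 ratio of 2.46 and a median of 0.37 over the list. For the 4 luminal genes, Areg, Krt5, Krt15 and Top2a the fractions did not overlap. The part of cell state or lineage in the lower levels of the secretory genes was not tested.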

How the data were processed

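The deposited tables hold raw UMI counts per gene symbol and cell barcode, 1000 barcodes per table, which the authors made from Drop-seq reads with dropseq-tools. The submitters' processing notes name Scanpy and mm10, with an aligner not given in the sources used here. The 8 HiSeq tables were used, and the 8 MiSeq tables labelled with the same fractions served as an alternative, although only 16 of their 1209 kept barcodes were also kept in the HiSeq table of the fraction. Columns of no sample were not used.

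Genes seen in at least 3 cells and barcodes with 450 to 4000 genes and under 20% mitochondrial UMIs were kept, as in the study's methods, leaving 19822 genes. No doublet caller was run, so the upper limit on genes was the only guard against doublets. Counts were scaled to 10000 per cell, log-transformed and clustered without the 10 genes (30 components, 20 neighbours, Leiden resolution 0.3) in scanpy 1.11.5. A cluster was named from 11 marker lists by its leading markers, at least 3 of them, each with a UMI in at least 10% of cells and at least 2-fold higher than elsewhere. Levels (CPM) are the summed counts of a class divided by all of its UMIs and multiplied by 1000000, with exact Poisson intervals. Shares have Clopper-Pearson intervals and ratios conditional binomial intervals. Intervals are 95% and, like the floor of 3 counts for a count of 0, cover counting error only.

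Each model was 1 sample, so no difference was tested. Outlying fractions were sought with Dixon's criterion (0.829 for 4 values). Ratios were computed for genes with at least 50 UMIs over both models, and their calculation was checked on simulated counts. Those counts were Poisson draws without spread over cells or fractions, so the check does not cover such spread. Likeness was computed among genes with at least 200 UMIs in WB1P epithelial-like cells, naming up to 3 genes per member with r of at least 0.3. Alternatives varied the clustering, filters, cell set, depth, scaling (edgeR 4.0.16 TMM and DESeq2 1.42.0 size factors) and fractions. Levels of classes and sub-clusters without a fraction or without the cells with most UMIs were chosen after seeing the data. The members, the 16 gene lists and the marker lists were chosen with earlier results of these data known. Transcripts and positions are from GENCODE vM21 and promoters from RefSeq, both on GRCm38.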

Additional observations from a re-analysis of the deposited data

Results flagged for a closer look

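Of 21 groups of 4 fractions examined, 5 held a fraction far from the other 3. The groups of a model share the same 4 fractions, and 1 or 2 cells carry much of some levels. The count of 5 is therefore not set against a rate expected by chance. In WB1P epithelial-like cells, 3 of the 5 outlying fractions were fraction 1, which had 60 cells. Csn3 was at 2845 CPM there, against 655 to 987 CPM in the other fractions, with 194 of its 254 UMIs in 2 cells. Wfdc2 was at 1064 CPM, against 631 to 685 CPM, with 27 of its 95 UMIs in 2 cells, without which it was at 811 CPM. Lcn2 was at 7169 CPM, against 3135 to 3813 CPM, with 280 of its 640 UMIs in 2 cells, without which it was at 4988 CPM. Dcpp2 was at 165 CPM in WB1P fraction 3, against 19.3 to 42.2 CPM, with 65 of its 90 UMIs in 2 cells. Chil1 was at 98.6 CPM in WB1P-Myc fraction 2, against 8.56 to 19.5 CPM, with 71 UMIs in 1 cell.

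The barcodes of WB1P that were left out for having under 200 genes also held UMIs of these genes, listed here because no comparison used those barcodes. The 10 genes had 1448 UMIs there, a sum of 4693 CPM, against 11073 CPM in WB1P epithelial-like cells.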

How the results depend on the processing

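Leaving out 1 fraction at a time gave a summed WB1P level of 10809 to 11355 CPM, a log2 ratio of the sum of -2.76 to -2.20, 8 to 9 genes at least 4-fold lower in WB1P-Myc, 7 to 8 genes at least 4-fold higher in WB1P epithelial-like cells than in each other class, and 4.11% to 5.09% of all genes at least 4-fold lower. Over every kept cell the summed level was 6970 CPM, the log2 ratio of the sum -3.12 and the share of all genes 1.98%. Over all cells outside the stromal and leukocyte classes the log2 ratio of the sum was -3.54. With no minimum on UMIs the share of all genes was 10.9%. The count of genes at least 4-fold higher in WB1P epithelial-like cells than in each other class was 3 at resolution 0.6, 5 with no upper limit on genes and 5 with a lower limit of 200 genes, and the cause was not tested. The MiSeq tables gave 235 WB1P and 2 WB1P-Myc epithelial-like cells. On these, the log2 ratio of the sum was -0.22, 3 genes were at least 4-fold lower, 0 were at least 4-fold higher in epithelial-like cells than in each other class and the share of all genes was 2.02%. Wfdc2 (1.70), Slpi (1.25) and Chil1 (0.38) reversed there, resting on 2 cells. An alternative chosen after seeing the data, MiSeq cells outside the stromal and leukocyte classes (236 and 615 cells), gave a log2 ratio of the sum of -3.28 and 8 genes at least 4-fold lower. The log2 ratio of Wfdc18 ran from -3.89 to 0.52 over the alternatives and was -0.47 without WB1P-Myc fraction 3. TMM and DESeq2 scaling left 9 genes at least 4-fold lower. Thinned to 600 UMIs, 7 were at least 4-fold lower, Dcpp1 and Dcpp2 falling under the minimum of 50 UMIs. Of 206 log2 ratios of single genes, 177 stayed within the spread over fractions, as did 148 of 180 shares of cells and 56 of 66 correlations. These counts include alternatives that left out 1 of the same fractions and, for the ratios, TMM and DESeq2 scaling. Such alternatives could hardly exceed that spread, so the counts are not read as robustness.

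No paired analysis was possible because each model was 1 suspension, its fractions share only a number with those of the other model, and no comparison came from a test. Few UMIs limit the values of WB1P fraction 1, of the 37 endothelial-like WB1P cells and of Cst6, Dcpp1 and Dcpp2 in WB1P-Myc.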
